A study of Mus musculus with 12 samples.

Results

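Interferon-stimulated effector genes are the genes whose products carry out the antiviral and antimicrobial action of interferons, and 48 of them were followed here in resident peritoneal macrophages of C57BL/6 mice. They were taken by gene symbol from the 54532 genes of the deposited count table, and 46 of the 48 had enough counts to be tested, among 14506 tested genes in all. Ifit3b and Ifi44 were the 2 members below that minimum. The cells spent 24 h in DMEM with either of the buffers MOPS and HEPES. Some were then exposed for 2 h to 10 ng/ml of lipopolysaccharide (LPS, a bacterial cell-wall component sensed by Toll-like receptor 4), which gave 4 groups of 3 RNA-seq libraries: MOPS (libraries 1 to 3), HEPES (4 to 6), and the same media with LPS, MOPS (7 to 9) and HEPES (10 to 12). The study concerns extracellular acidity. Its description lists the pH values 6.8 and 7.4 and then the buffers, so that MOPS is read as pH 6.8 and HEPES as pH 7.4 only because of that sequence of words, and buffer and pH cannot be told apart in any comparison of media. No genotype beyond the strain is named for any group. The labels give neither the age of the mice nor whether the libraries of a group came from separate animals, so that p-values measure only the spread between these libraries.

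In the type I interferon pathway, a sensor such as Toll-like receptor 4 leads to activation of the transcription factor IRF3 and to secretion of interferon-beta. Secreted interferon binds the receptor formed by IFNAR1 and IFNAR2, whose kinases activate STAT proteins. Among them STAT2 joins IRF9 in the complex ISGF3, which binds the interferon-stimulated response element (ISRE) in the promoters of its target genes. Some of these genes can also be switched on directly by IRF3 before any interferon is made. The members were grouped by role: 4 IFIT genes, 5 OAS genes, 2 Mx genes, 3 genes of the ISG15 system, 8 effectors acting on RNA and nucleotides, 5 nucleic acid sensors, 8 GTPases of the IRG and GBP families, 5 PARP and TRIM genes, and 8 others including Stat2.

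Promoter sequence was available for 37 of the 48 members in RefSeq (build GRCm38.p6), as the window from 250 bases before to 50 bases after the start of each gene. The ISRE core was searched on both strands as GAAA, any 2 bases and GAAA, which reads TTTC, any 2 bases and TTTC on the opposite strand. It was present in 23 of the 37 members (62.2%), against 3.99% of all 27025 genes with a window. The GAS element (gamma-interferon activation site), searched as TTC, any 3 bases and GAA, was present in 12 (32.4%, against 9.55% of all genes), and 1 of the 34 distinct ISRE matches overlapped a GAS match. An NF-kappaB motif, searched as GGG, any 2 bases and TTTCC, was found in 1 member, Gbp5 (2.70%, against 1.89%). A match describes the letters of the window and is not a measured binding site. The stretches before the start site that hold no annotated exon are given for 6 members whose values the results turn on, 5′ to 3′ on the strand of the gene, with ISRE matches in capitals. For Gbp5 and Irgm2 the RefSeq start lies inside the gene's span in the deposited table, so these stretches are intronic there. Ifit1 (stretch at chr19:34640744-34640870, plus strand), Isg15 (chr4:156200819-156201068, minus strand) and Gbp5 (chr3:142496684-142496899, plus strand) were among the members with the largest LPS response, and Irgm2 (chr11:58214727-58214976, plus strand) fell with LPS in MOPS. Oasl1 (chr5:114922990-114923203, plus strand) and Samhd1 (chr2:157135266-157135346, minus strand) have no match in the whole window and were the 2 members with the largest positive difference between MOPS and HEPES under LPS.
Ifit1: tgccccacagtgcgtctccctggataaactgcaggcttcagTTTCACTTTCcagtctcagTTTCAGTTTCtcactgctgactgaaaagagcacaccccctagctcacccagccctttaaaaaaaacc
Isg15: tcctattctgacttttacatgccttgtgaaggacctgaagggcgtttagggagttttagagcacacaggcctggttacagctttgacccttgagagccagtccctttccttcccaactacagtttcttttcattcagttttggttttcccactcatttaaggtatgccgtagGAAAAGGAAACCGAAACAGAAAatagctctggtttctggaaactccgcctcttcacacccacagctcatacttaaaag
Gbp5: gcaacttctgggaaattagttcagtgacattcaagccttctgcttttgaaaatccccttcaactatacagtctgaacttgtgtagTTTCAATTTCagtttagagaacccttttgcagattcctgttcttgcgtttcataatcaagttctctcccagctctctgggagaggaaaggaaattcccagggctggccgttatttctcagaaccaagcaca
Irgm2: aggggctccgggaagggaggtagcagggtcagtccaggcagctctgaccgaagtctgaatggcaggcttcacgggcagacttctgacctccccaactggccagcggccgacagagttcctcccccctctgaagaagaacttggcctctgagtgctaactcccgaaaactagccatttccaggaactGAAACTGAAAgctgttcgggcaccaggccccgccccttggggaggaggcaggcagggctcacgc
Oasl1: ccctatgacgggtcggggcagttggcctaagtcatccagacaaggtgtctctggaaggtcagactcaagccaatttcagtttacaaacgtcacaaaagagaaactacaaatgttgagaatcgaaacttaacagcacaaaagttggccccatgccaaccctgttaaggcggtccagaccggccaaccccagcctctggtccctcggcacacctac
Samhd1: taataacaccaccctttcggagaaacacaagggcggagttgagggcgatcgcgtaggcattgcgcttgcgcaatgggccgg
Ifit1 has 2 separate ISRE matches, Isg15 has 3 that overlap each other in 1 run, and Gbp5 and Irgm2 have 1 each. Among tested members, the median log2 change with LPS in HEPES was 1.08 for the 22 with an ISRE match, 0.872 for the 13 with a window and no match and 0.763 for the 11 without a window. In MOPS these medians were 0.861, 0.285 and 0.353. The ranges of the classes overlapped in both media, and both Oasl1 without a match and Ifit1 with 2 were near the top. For the difference between MOPS and HEPES under LPS, the medians of the 3 classes were -0.688, -0.569 and -0.993. Most members without a match were thus lower in MOPS too, unlike Oasl1, Samhd1 and Trim25, which also has no match (0.32 ± 0.043).

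Library totals were 20114613 to 24734853 counts, and the 48 members together took 0.138% to 0.148% of the counts in the MOPS group, 0.146% to 0.148% in HEPES, 0.247% to 0.251% in MOPS with LPS and 0.295% to 0.322% in HEPES with LPS. Levels are given as CPM, the counts of a gene per 1e+06 counts after TMM scaling of the libraries, and levels of different genes are compared per kilobase of gene length. The macrophage markers Adgre1, Csf1r, Cd68, Itgam and Lyz2 were present in every library, but the sum of the 9 macrophage markers looked at differed by medium without overlap. It was 16700 to 16950 CPM in MOPS, 25980 to 27350 in HEPES, 17350 to 19680 in MOPS with LPS and 27310 to 29080 in HEPES with LPS. Most of that sum is Lyz2, which was lower in MOPS by a log2 difference of -0.80 without LPS and -0.76 with LPS, and Timd4 was lower too (-1.60 and -1.85), the same direction as most members. Of the 9, MOPS had 4 lower and 3 higher without LPS, and 4 lower and 2 higher with LPS. Transcripts of B cells were present too: 10 B cell markers summed to 200.3 to 210.1 CPM in MOPS, 86.3 to 155.3 in HEPES, 117.2 to 129.7 in MOPS with LPS and 25.5 to 29.9 in HEPES with LPS, with none at 0 in any group. Of the 9 that were tested, MOPS had 6 higher and 0 lower in untreated cells and all 9 higher with LPS. The 9 markers looked at for plasmacytoid dendritic cells, a type specialised in interferon secretion, summed to 70.8 to 88.0 CPM over the 12 libraries. Most of that sum is Tcf4, with group means of 46.6 to 51.6 CPM. Of their defining genes, Siglech was at most 0.122 CPM in any library and at 0 in HEPES with LPS, and Klk1 was at 0 in 3 of the groups. The 9 markers looked at for other dendritic cells and small peritoneal macrophages summed to 182.9 to 205 CPM in MOPS, 196.5 to 219.2 in HEPES, 248.4 to 270.5 in MOPS with LPS and 293.4 to 356 in HEPES with LPS, with none at 0 in any group. Of these 9, MOPS had 4 higher and 1 lower without LPS, and 4 higher and 4 lower with LPS. Clec9a and Flt3 of that list were higher in MOPS without LPS (2.81 and 2.87 on the log2 scale) and with LPS (3.60 and 3.20). Xcr1 and Irf4 had lower means in MOPS with LPS (6.25 and 25.9 CPM) than in HEPES with LPS (10.1 and 60.2). Clec9a had 9.61, 9.72 and 9.53 CPM in MOPS against 1.15, 1.36 and 1.62 in HEPES. T and NK cell markers summed to at most 1.22 CPM. The part of these cells in the results was not tested, and in bulk RNA fewer cells of a type and less RNA per cell cannot be told apart.

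Without LPS the members were expressed at a low level. The median member had 2.56 CPM per kilobase in MOPS and 3.38 in HEPES, and 8 members in MOPS and 6 in HEPES were below 1 CPM. Trim25 (45.6 CPM per kilobase in MOPS and 25.5 in HEPES), Bst2 (38.5 and 56.8), Samhd1 (28.2 and 18.9) and Tor3a (13.7 and 19.3) were the 4 highest in both media. Bst2 encodes tetherin, which holds budding virus at the cell surface, and it was first in HEPES, while Trim25 was first in MOPS. With LPS the order changed: Isg15 was first in both media, at 209 CPM per kilobase in MOPS and 267 in HEPES, and Ifih1 was next at 66.8 and 82.9. Ifi44 had 0 counts in MOPS, which allows up to 0.0376 CPM (3 counts over the group), and 0.0675, 0.0349 and 0 CPM in the HEPES libraries, 0, 0 and 0.0551 in MOPS with LPS and 0.49, 0 and 0.0556 in HEPES with LPS, where library 10 alone was above 0.1 CPM. Ifit3b had 0.0132, 0.0117, 0.204 and 0.199 CPM in the 4 groups, and shares 44.5% of its 50-base words with Ifit3, so that reads of the pair may have been split or dropped in counting.

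The first comparison asked which effector genes responded to LPS within 2 h. Summed over all 48 members, the level rose from between 1205 and 1241 CPM in the HEPES libraries to between 3684 and 4031 with LPS, and from between 1129 and 1215 in MOPS to between 2889 and 2960 with LPS. Counting only members whose mean was higher with LPS, Ifih1, Parp14 and Gbp5 made up 55.8% of the summed rise in CPM in HEPES and 56.9% of that in MOPS. These shares are not corrected for gene length, and the genes are long (8165, 9306 and 6637 bases). Per kilobase, Isg15 (756 bases) rose further, from 4.07 to 267 in HEPES, against 3.18 to 82.9 for Ifih1. In MOPS these levels were 2.54 to 209 and 2.88 to 66.8. In HEPES, 32 of the 46 tested members rose and 4 fell (edgeR quasi-likelihood test, Benjamini-Hochberg adjusted p under 0.05), with a median log2 fold change of 0.875 against -0.0841 over all tested genes. Of all genes, 35.6% rose and 41.2% fell in that comparison. In MOPS, 25 members rose and 14 fell, with a median of 0.334 against -0.0345, where 34.1% of all genes rose and 34.9% fell. The share of members that rose was thus above that of all genes in both media (69.6% in HEPES and 54.3% in MOPS). The share that fell was below that of all genes in HEPES (8.70%) and near it in MOPS (30.4%). These directions depend on how libraries are scaled, since scaling by total counts alone shifts the median of all genes to -0.669 in HEPES and -0.547 in MOPS. The members' split was then 25 higher and 15 lower in HEPES (62.5% of calls higher, against 88.9% with TMM) and 19 and 22 in MOPS (46.3% against 64.1%). Of all called genes, 20.6% were then higher in HEPES (46.3% with TMM) and 18% in MOPS (49.4% with TMM). Relative to the median of all genes, the members' median was 0.959 higher in HEPES with either scaling and 0.369 or 0.368 higher in MOPS. A change of scaling shifts every gene by nearly the same amount, so this near equality was set in advance and does not test the directions.

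**Figure D1:**
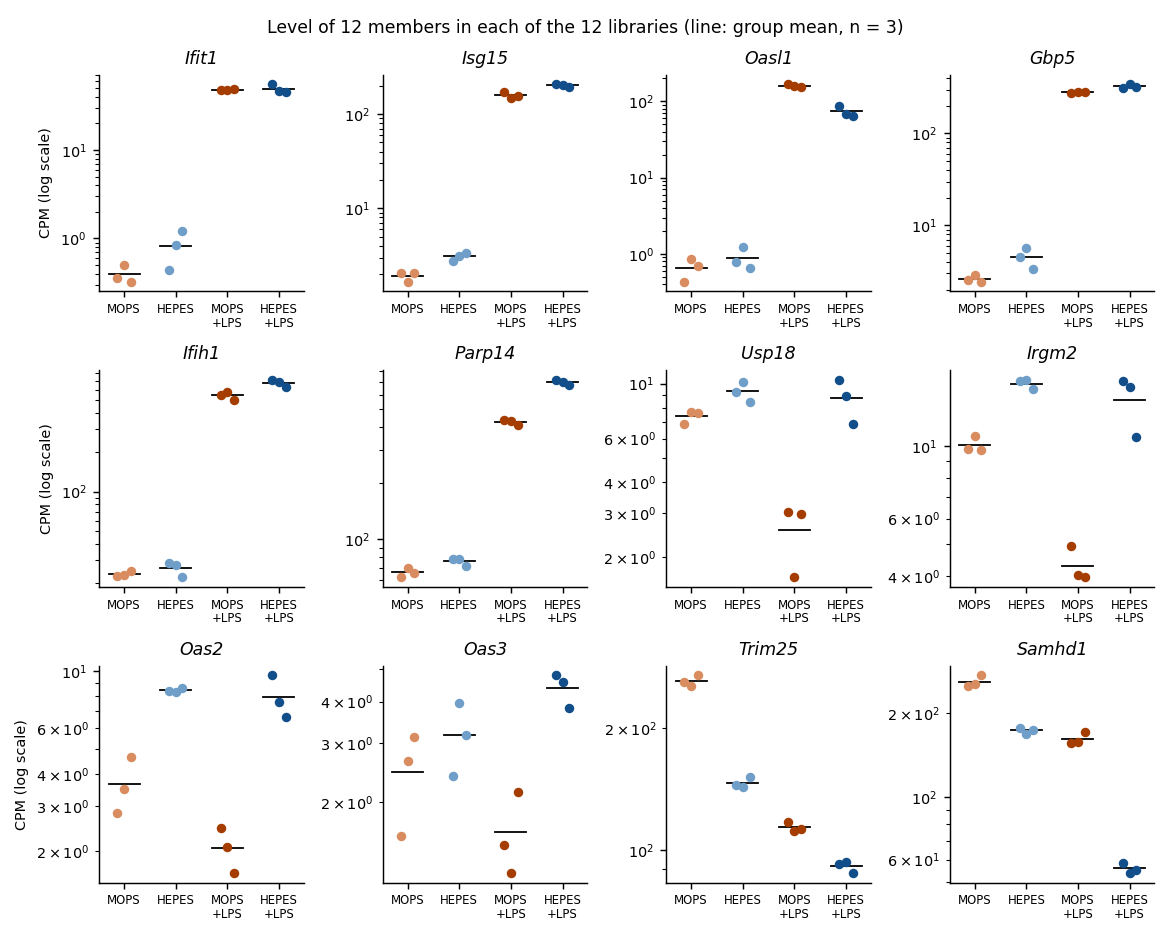
Level (CPM, log scale) of 12 members in each of the 12 libraries, grouped by medium and LPS; each point is 1 library and the line is the mean of 3. Ifit1, Isg15, Oasl1, Gbp5 and Ifih1 rise in both media, Usp18 and Irgm2 fall with LPS in MOPS only by the test used, and Trim25 and Samhd1 fall in both.

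Gene positions are those of the deposited table on mm10. IFIT proteins bind viral RNA ends and block their translation, and all 3 tested IFIT genes rose in HEPES and 2 in MOPS. Ifit1 (chr19:34640871-34650009, plus strand) was at 0.356, 0.499 and 0.326 CPM in the 3 MOPS libraries and 0.439, 0.839 and 1.22 in the HEPES libraries. With LPS it was at 47.2, 48.1 and 48.5 in MOPS and at 55, 45.9 and 45.3 in HEPES. Every library with LPS was above every library without it, and the 2 LPS groups overlapped. Its log2 fold change with LPS was 6.89 ± 0.16 (SE) in MOPS and 5.88 ± 0.14 in HEPES (adjusted p = 4.51e-22 and adjusted p = 4.39e-22). Ifit2 rose by 1.91 ± 0.32 and 1.33 ± 0.23, from means of 0.385 and 1.25 CPM without LPS to only 1.44 and 3.16 with it. Ifit3 had means of 0.396 CPM in MOPS and 2.33 in HEPES under LPS, and shares 51.2% of its 50-base words with Ifit3b. It rose in HEPES (2.38 ± 0.39, adjusted p = 2.72e-06) and missed the threshold in MOPS (1.35 ± 0.65, adjusted p = 0.0663), where it passed without library 1 or 8 and with DESeq2. The 4 IFIT genes lie next to one another on chromosome 19, and after 2 h of LPS Ifit1 stood at 18.4 CPM per kilobase in HEPES against 0.805 for Ifit2 and 1.34 for Ifit3.

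OAS enzymes answer double-stranded RNA by making oligoadenylate second messengers, and Oasl1 and Oasl2 are their relatives with a ubiquitin-like tail. Oasl1 (chr5:114923240-114937915, plus strand) was at 0.435, 0.866 and 0.693 CPM in MOPS and 0.777, 1.22 and 0.664 in HEPES. With LPS it was at 166, 156 and 151 in MOPS and at 87.2, 69 and 63.9 in HEPES. Its log2 change with LPS was 7.86 ± 0.20 in MOPS and 6.36 ± 0.20 in HEPES (adjusted p = 1.96e-11 and adjusted p = 1.02e-10), and it had the largest LPS rise of the 46 members in both media. The untreated groups overlapped, and the MOPS libraries with LPS were all above the HEPES libraries with LPS. Oasl2, its neighbour 11006 bases away, rose less, by 2.33 ± 0.11 and 1.8 ± 0.10. Oas1a rose in both media (0.29 ± 0.10 and 0.54 ± 0.091), but it shares 57.6% of its 50-base words with Oas1g, and the MOPS call was lost without library 2, 7 or 9 and turned to -0.22 with total counts alone (-0.04 in HEPES). Oas2 (chr5:120730333-120749853, minus strand) had 2.81, 3.5 and 4.64 CPM in MOPS, 8.41, 8.28 and 8.59 in HEPES, 2.47, 2.08 and 1.65 in MOPS with LPS and 9.64, 7.61 and 6.62 in HEPES with LPS. It fell in MOPS (-0.81 ± 0.20, adjusted p = 5.96e-04) and was not called in HEPES (-0.082 ± 0.14, adjusted p = 0.607). The HEPES value is lower with total counts alone, where the median of all genes was -0.669. Oas3 (chr5:120753098-120777661, minus strand) was the 1 member called in opposite directions, lower with LPS in MOPS (-0.62 ± 0.26, adjusted p = 0.0352) and higher in HEPES (0.47 ± 0.21, adjusted p = 0.0423). Its levels were 1.58, 2.66 and 3.14 CPM in MOPS, 2.4, 3.95 and 3.17 in HEPES, 1.49, 1.23 and 2.15 in MOPS with LPS and 4.79, 4.58 and 3.84 in HEPES with LPS, and the groups with and without LPS overlapped in both media. Neither call held without some single libraries: the MOPS call was lost without library 2, 3, 7 or 8, and the HEPES call without library 2, 4, 6, 10 or 11 and with total counts alone (-0.11).

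The Mx genes encode dynamin-like GTPases that trap viral particles, and Mx1 carries a disabling deletion in most inbred strains, C57BL/6 among them. Mx2 is annotated as a polymorphic pseudogene in the deposited data. Both genes rose in both media from a low level. Mx1 was at 0.83, 1.13 and 0.978 CPM in MOPS, 1.99, 1.78 and 1.07 in HEPES, 6.27, 3.78 and 4.63 in MOPS with LPS and 14.5, 12 and 10.1 in HEPES with LPS, with log2 changes of 2.3 ± 0.24 and 2.91 ± 0.20. Mx2 was at 0.198, 0.599 and 0.448 CPM in MOPS, 0.675, 1.15 and 0.737 in HEPES, 2.11, 2.27 and 2.1 in MOPS with LPS and 8.44, 8.04 and 5.67 in HEPES with LPS, with changes of 2.33 ± 0.31 and 3.1 ± 0.23. For each gene the 2 LPS groups did not overlap, and HEPES was higher.

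ISG15 is a ubiquitin-like protein that is attached to other proteins, USP18 removes it and also blocks signalling at the interferon receptor, and TRIM25 is a ubiquitin ligase that acts in RIG-I signalling. The 3 genes moved in different ways. Isg15 (chr4:156199424-156200818, minus strand) was at 2.06, 1.67 and 2.04 CPM in MOPS, 2.74, 3.15 and 3.36 in HEPES, 170.2, 148 and 157 in MOPS with LPS and 207, 206 and 194 in HEPES with LPS, a log2 rise of 6.37 ± 0.081 in MOPS and 6.04 ± 0.073 in HEPES (adjusted p = 3.64e-33 and adjusted p = 7.96e-34). The HEPES libraries were above the MOPS libraries both without and with LPS. Usp18 (chr6:121245906-121270917, plus strand) was at 6.84, 7.69 and 7.58 CPM in MOPS and 3.03, 1.66 and 2.98 in MOPS with LPS, a change of -1.54 ± 0.18 (adjusted p = 9.99e-09). In HEPES it was at 9.25, 10.2 and 8.44 CPM without LPS and 10.3, 8.94 and 6.84 with LPS, and these groups overlapped (-0.093 ± 0.14, adjusted p = 0.555). With total counts alone, where the median of all genes in HEPES was -0.669, this value is lower too. Trim25 (chr11:88999376-89020293, plus strand) fell in both media, from 261, 255 and 270.4 CPM to 118, 112 and 113 in MOPS and from 145, 143 and 152 to 92.3, 93.7 and 87.9 in HEPES, changes of -1.20 ± 0.041 and -0.68 ± 0.042. No LPS library reached the level of an untreated library of the same medium.

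Of the 8 effectors acting on RNA and nucleotides, 6 rose in HEPES and 4 in MOPS. Rsad2, which encodes the radical enzyme viperin, rose from means of 1.78 ± 0.66 (SD, n = 3) to 35.1 ± 3.2 CPM in MOPS and from 3.33 ± 0.78 to 39.1 ± 6.9 in HEPES (4.26 ± 0.24 and 3.56 ± 0.21 on the log2 scale). Its neighbour Cmpk2, a mitochondrial nucleotide kinase gene 12752 bases away, rose by 2.67 ± 0.18 and 2.18 ± 0.14. The Schlafen gene Slfn8 rose by 2.26 ± 0.051 and 2.47 ± 0.050 to 37.2 and 50.7 CPM per kilobase, and had the highest level per kilobase of this role over the 12 libraries. Adar, an RNA-editing enzyme gene, and Isg20, an exonuclease gene, were called higher in HEPES (0.40 ± 0.052 and 0.88 ± 0.14) and not in MOPS (-0.050 ± 0.053 and 0.31 ± 0.15), and with total counts alone Isg20 was no longer called in HEPES and Adar was lower there (-0.18). Eif2ak2, the gene of the RNA-dependent kinase PKR, fell in MOPS (-0.35 ± 0.071) and was not called in HEPES (0.13 ± 0.067). Samhd1 (chr2:157097533-157135265, minus strand) encodes an enzyme that breaks down the building blocks of DNA and so limits reverse transcription. It went from 249, 253 and 272 CPM to 156, 157 and 171 in MOPS and from 177, 168 and 174 to 58.5, 53.9 and 55 in HEPES. Both falls left no overlap between treated and untreated libraries, and their sizes were -0.68 ± 0.044 in MOPS and -1.63 ± 0.048 in HEPES (adjusted p = 7.80e-15 and adjusted p = 4.74e-24).

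Of the 5 sensors, 4 rose in HEPES and 2 in MOPS, and 1 fell in both media. Ifih1 (chr2:62595798-62646255, minus strand), which encodes the long double-stranded RNA sensor MDA5, was at 22.8, 23.1 and 24.7 CPM in MOPS, 28.4, 27.3 and 22.2 in HEPES, 549.7, 581 and 505 in MOPS with LPS and 713, 687 and 631 in HEPES with LPS. It rose by 4.54 ± 0.088 and 4.70 ± 0.087. In CPM, not corrected for gene length, its single rise held 22.8% of the rise summed over the members with a higher mean under LPS in HEPES and 25.6% in MOPS. Ifi204, a DNA sensor gene of the p200 family, rose by 1.74 ± 0.051 and 1.98 ± 0.048. Ddx58, the gene of RIG-I, was not called in MOPS (-0.15 ± 0.083) and was called higher in HEPES (0.43 ± 0.078), as was Zbp1 (-0.18 ± 0.18 and 0.39 ± 0.14), and both HEPES calls were lower with total counts alone (-0.16 for Ddx58 and -0.19 for Zbp1), while that of Zbp1 was also lost without library 6. Dhx58, the gene of the third RIG-I family member LGP2, fell in MOPS (-0.78 ± 0.14, adjusted p = 1.34e-05) and in HEPES (-0.31 ± 0.12, adjusted p = 0.0237). The HEPES call was lost without library 7, 11 or 12 and with DESeq2.

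Among the interferon-inducible GTPases, which attack the vacuoles of intracellular microbes, the guanylate-binding protein (GBP) members and the IRG members moved apart. All 4 GBP genes rose in both media, while all 4 IRG genes fell in MOPS and none was called in HEPES. Gbp5 (chr3:142493978-142522344, plus strand) was at 2.57, 2.86 and 2.44 CPM in MOPS, 4.49, 5.73 and 3.39 in HEPES, 275, 282 and 284 in MOPS with LPS and 314, 342 and 322 in HEPES with LPS, a rise of 6.73 ± 0.093 and 6.16 ± 0.085. Gbp2 (chr3:142620602-142638008, plus strand) was at 8.5, 10.6 and 9.37 CPM in MOPS, 26.8, 31.4 and 25.6 in HEPES, 85.6, 91.5 and 105 in MOPS with LPS and 167, 194 and 183 in HEPES with LPS, and rose by 3.30 ± 0.12 and 2.70 ± 0.099. Gbp3 rose by 3.44 ± 0.12 and 2.43 ± 0.096 and Gbp7 by 1.86 ± 0.094 and 1.96 ± 0.077. The 4 GBP genes are neighbours on chromosome 3. Irgm2 (chr11:58199618-58222782, plus strand) went from 9.77, 10.8 and 9.7 CPM to 4.94, 4.02 and 3.97 in MOPS, with no overlap, and from 15.8, 15.9 and 14.9 to 15.8, 15.2 and 10.6 in HEPES, with overlap. Its changes were -1.23 ± 0.13 (adjusted p = 1.79e-09) and -0.16 ± 0.11 (adjusted p = 0.165). Igtp (-0.91 ± 0.17 in MOPS and -0.077 ± 0.14 in HEPES), Ifi47 (-0.83 ± 0.16 and 0.048 ± 0.14) and Irgm1 (-0.69 ± 0.098 and 0.10 ± 0.088) had the same pattern of calls. With total counts alone, which lowers the change of every gene, all 4 IRG genes were lower in HEPES, with Ifi47 at -0.54 and Irgm1 at -0.48. Igtp and Irgm2 overlap on 1 strand over 162 exonic bases and Igtp shares 11.8% of its 50-base words, so their counts are not fully separate.

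Parp14 (chr16:35832874-35871544, minus strand), which encodes an ADP-ribosyl transferase, was at 62.3, 70.2 and 65.9 CPM in MOPS, 77.7, 78.5 and 71.8 in HEPES, 440.1, 433 and 409 in MOPS with LPS and 719.9, 698 and 677 in HEPES with LPS. Its rises of 2.69 ± 0.047 and 3.20 ± 0.047 were far above those of its neighbours on chromosome 16, Parp9 (0.35 ± 0.066 and 0.76 ± 0.061) and Dtx3l (0.28 ± 0.065 and 0.84 ± 0.061), whose products form a complex and whose genes overlap on opposite strands over 458 exonic bases. With total counts alone Parp9 and Dtx3l were lower in MOPS (-0.16 and -0.23). The ubiquitin ligase gene Trim21 was not called in MOPS (0.062 ± 0.097) and rose in HEPES (0.44 ± 0.089; -0.14 with total counts alone), and Trim30a fell in MOPS (-0.25 ± 0.053) and was not called in HEPES (0.075 ± 0.051). In the remaining group, Stat2, the STAT of the ISGF3 complex, rose by 1.17 ± 0.061 and 1.24 ± 0.059, and Rtp4, a gene of a Golgi chaperone, rose by 2.88 ± 0.18 and 2.69 ± 0.15 from a low level. Ifi35 rose in both media (0.67 ± 0.11 and 0.87 ± 0.11; not called in MOPS with total counts alone), and Xaf1 rose in HEPES (0.90 ± 0.14) and was not called in MOPS (0.041 ± 0.17). Bst2 rose in MOPS (0.28 ± 0.074; -0.23 with total counts alone) and was not called in HEPES (0.11 ± 0.070). Tor3a, which encodes a torsin ATPase, fell in both (-0.30 ± 0.057 and -0.35 ± 0.054), and Phf11d fell in MOPS (-0.31 ± 0.13), a call lost without library 2, 3, 7 or 8 and with DESeq2, and was not called in HEPES (0.18 ± 0.11). In all, 24 members rose in both media, which is 96.0% of those that rose in MOPS and 75.0% of those that rose in HEPES, against 85.6% and 81.9% over all genes, and 4 (Dhx58, Samhd1, Tor3a and Trim25) fell in both.

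**Figure D2:**
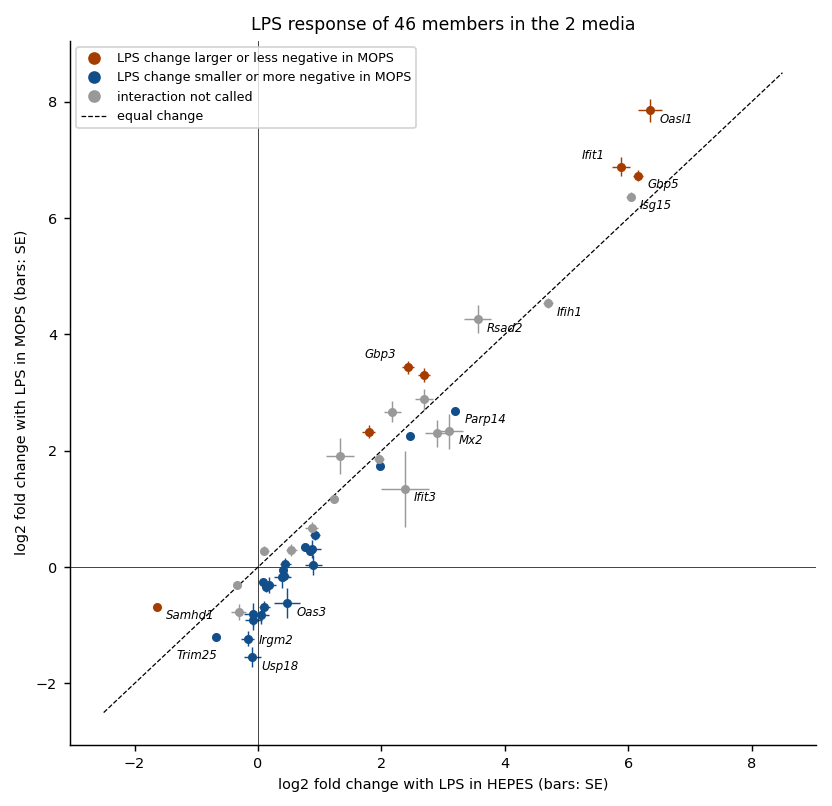
Log2 fold change with LPS in HEPES (x axis) and in MOPS (y axis) of the 46 tested members, with standard errors; the dashed line marks equal change and colours mark the interaction call. Most members with a small change in HEPES, among them Usp18, Irgm2 and Oas3, lie below the line, and Oasl1, Ifit1, Gbp3 and Samhd1 lie above it.

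The second comparison asked how the medium changed the effector genes in cells without LPS. In MOPS, 35 of the 46 tested members were lower than in HEPES, 2 were higher and 9 were not called. Of all tested genes, 25.4% were lower and 24.3% higher. The members' median log2 difference, MOPS over HEPES, was -0.542, against -0.0139 over all genes, and 10 members were lower by 2-fold or more, a change that 4.76% of all genes showed. All 3 tested IFIT genes, both Mx genes, 7 of 8 GTPases, all 5 PARP and TRIM genes, 3 of 5 OAS genes and 3 of 5 sensors were lower. Ifit2 had the largest difference (0.474, 0.233 and 0.448 CPM in MOPS against 1.18, 1.33 and 1.25 in HEPES, -1.72 ± 0.31, adjusted p = 2.24e-05). Cmpk2 followed (1.31, 1.23 and 0.937 against 3.24, 4.19 and 2.88 CPM, -1.56 ± 0.19, adjusted p = 4.87e-08), and then Gbp2 (-1.55 ± 0.13, adjusted p = 7.92e-07). For Ifit2, Cmpk2 and Gbp2 each MOPS library was below each HEPES library. Gbp2 and Gbp3 (-1.49 ± 0.13) had about the same difference, and Gbp7 (-1.18 ± 0.095) and Gbp5 (-0.79 ± 0.15) smaller ones. Among the IRG members the differences were smaller again, from -0.62 ± 0.11 for Irgm2 to -0.25 ± 0.087 for Irgm1, with Ifi47 not called (-0.25 ± 0.14, adjusted p = 0.132). Oas2 (-1.21 ± 0.15), Oasl2 (-0.84 ± 0.12) and Oas1a (-0.68 ± 0.096) were lower, and Oas3 (-0.36 ± 0.22) and Oasl1 (-0.40 ± 0.49) were not called. Among sensors Zbp1 (-0.90 ± 0.15) and Ifi204 (-0.63 ± 0.052) were lower and Ddx58 (-0.14 ± 0.078) and Ifih1 (-0.15 ± 0.095) were not called, although Ddx58 passed without library 2 and Ifih1 without library 6.

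The 2 members above their HEPES level without LPS were Trim25 and Samhd1, which also belong to the members that fell with LPS. Trim25 was 1.79 times as high in MOPS (0.84 ± 0.040, adjusted p = 1.53e-17), and Samhd1 1.49 times (0.58 ± 0.043, adjusted p = 1.03e-12). For both, every MOPS library was above every HEPES library. Of the 37 calls, 28 were kept in each of the 18 alternative analyses. The 9 others were lost when some single libraries were left out, named in brackets: Dhx58 (1), Dtx3l (1 or 5), Eif2ak2 (1, 4 or 5), Ifit1 (1, 3 or 6), Ifit3 (2, 4 or 5), Irgm1 (1 or 5), Mx1 (1, 3, 4 or 5), Mx2 (1 or 5) and Usp18 (1, 2, 3, 4, 5 or 11). That of Usp18 was also lost with DESeq2, RLE size factors and total counts alone, and those of Dtx3l, Eif2ak2 and Irgm1 with DESeq2.

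**Figure D3:**
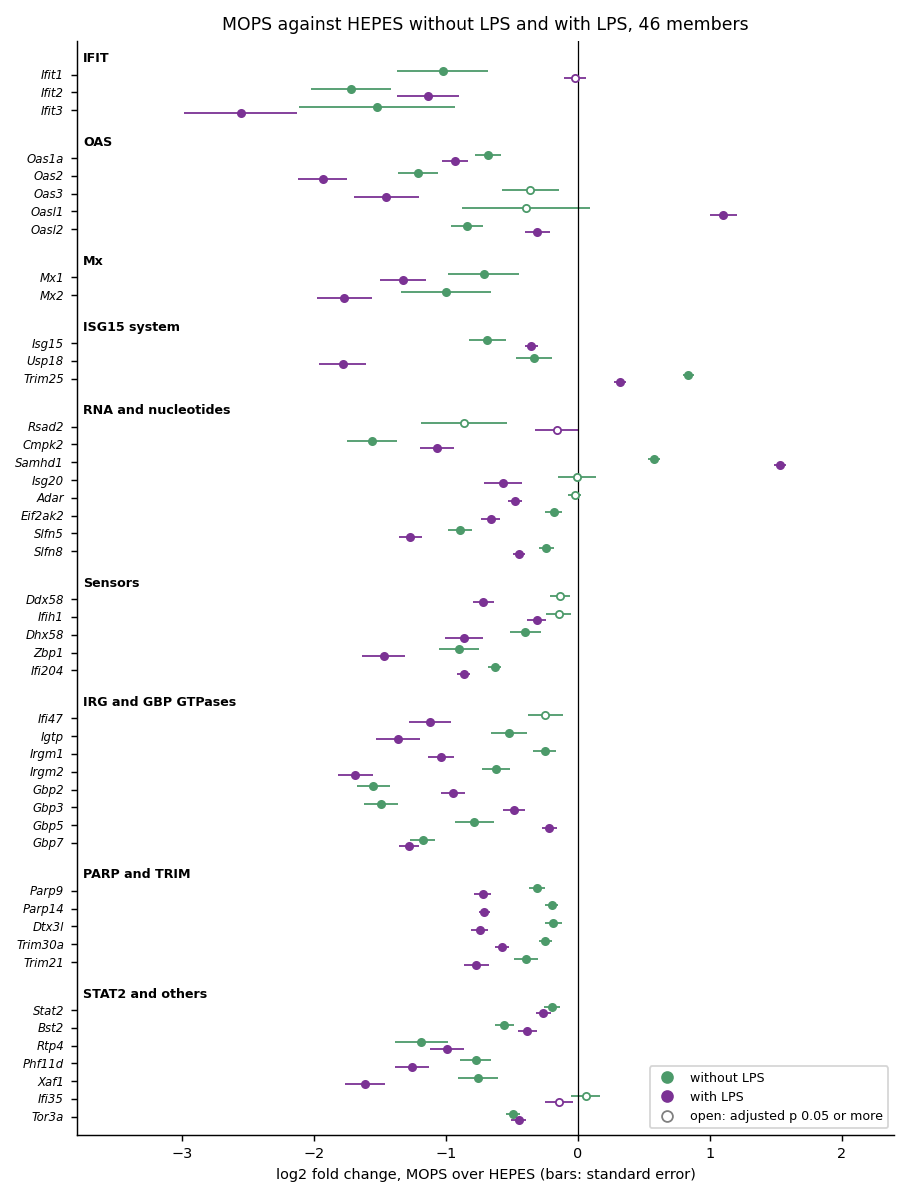
Log2 fold change of MOPS over HEPES without LPS (green) and with LPS (purple) for the 46 tested members by role, with standard errors; filled points have an adjusted p under 0.05. Most members lie left of 0 in both states, while Samhd1 and Trim25 lie right of 0 in both and Oasl1 lies right of 0 with LPS.

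The third comparison was between the media in cells given LPS. In MOPS, 40 of 46 members were lower, 3 were higher and 3 were not called, where 26.9% of all genes were lower and 26.9% higher. The median difference was -0.758, against 0.00469 over all genes. Members lower by 2-fold or more numbered 17, a change seen in 4.30% of all genes. Ifit3 was lowest relative to HEPES (0.566, 0.236 and 0.386 CPM in MOPS with LPS against 3.21, 2.45 and 1.34 in HEPES with LPS, -2.56 ± 0.43, adjusted p = 8.89e-06). Oas2 (-1.94 ± 0.18, adjusted p = 2.42e-10), Usp18 (-1.78 ± 0.18, adjusted p = 1.72e-09) and Mx2 (-1.77 ± 0.21, adjusted p = 1.49e-08) came next, and for each of these 4 genes no MOPS library reached a HEPES library. All 8 GTPases were lower, from -1.69 ± 0.13 for Irgm2 and -1.36 ± 0.17 for Igtp to -0.22 ± 0.057 for Gbp5. So were all 5 sensors, from -1.47 ± 0.16 for Zbp1 to -0.31 ± 0.071 for Ifih1, and all 5 PARP and TRIM genes, from -0.77 ± 0.095 for Trim21 to -0.58 ± 0.054 for Trim30a. Isg15 was lower by a modest amount (-0.35 ± 0.048, adjusted p = 2.03e-07), and Xaf1 (-1.61 ± 0.15), Slfn5 (-1.27 ± 0.087), Phf11d (-1.26 ± 0.13) and Cmpk2 (-1.07 ± 0.13) by more than 2-fold.

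Samhd1 had the largest difference in the other direction, with 156, 157 and 171 CPM in MOPS with LPS and 58.5, 53.9 and 55 in HEPES with LPS (1.53 ± 0.048, adjusted p = 5.63e-22). Oasl1 was 2.15 times as high in MOPS (1.10 ± 0.11, adjusted p = 5.36e-06), and Trim25 1.25 times (0.32 ± 0.043, adjusted p = 1.69e-07). Ifit1 (-0.023 ± 0.082, adjusted p = 0.833), Rsad2 (-0.16 ± 0.16, adjusted p = 0.447) and Ifi35 (-0.15 ± 0.11, adjusted p = 0.254) were not called, and of these Rsad2 and Ifi35 passed without library 12. The members lower in MOPS both without and with LPS numbered 34, which is 97.1% of those lower without LPS and 85.0% of those lower with LPS, and these 2 comparisons share no library. Over all genes the shares were 50.2% and 47.5%. Since 76.1% of the tested members were lower without LPS and 87.0% with LPS, a large overlap is already set by these counts. Of the 43 calls with LPS, 41 were kept in each of the 18 alternatives. Gbp5 and Oasl2 missed the threshold with total counts alone (adjusted p = 0.0668 and 0.0553), which gave 3 members higher and 38 lower and a split of all called genes of 62.4% higher, against 50% with TMM.

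The interaction compares the LPS change in MOPS with that in HEPES in the same model. It was called for 30 of 46 members, 7 with a higher value in MOPS and 23 with a lower one. Over all genes 21.9% were called higher and 17.6% lower, and the members' median was -0.378 against 0.0598. Total counts alone gave 9 higher and 17 lower (34.6% of calls higher, against 23.3% with TMM). Of all called genes 66.4% were then higher, against 55.5% with TMM. Relative to the median of all genes, the members' median was -0.437 with that scaling and -0.438 with TMM. A change of scaling shifts every gene by nearly the same amount, so this near equality was set in advance. Usp18 had the most negative value, -1.45 ± 0.23 (adjusted p = 8.68e-06), followed by Oas3 (-1.09 ± 0.33, adjusted p = 0.00977) and Irgm2 (-1.06 ± 0.17, adjusted p = 9.78e-06). All 4 IRG genes were called lower, as were all 5 PARP and TRIM genes, whose values ran from -0.56 ± 0.090 for Dtx3l to -0.33 ± 0.074 for Trim30a. Of the sensors, Ddx58 (-0.58 ± 0.11), Zbp1 (-0.57 ± 0.22) and Ifi204 (-0.24 ± 0.070) were lower, and Ifih1 (-0.17 ± 0.12) and Dhx58 (-0.46 ± 0.19) were not called. On the other side were 3 of the 4 GBP genes, Gbp3 (1.01 ± 0.16, adjusted p = 9.47e-05), Gbp2 (0.60 ± 0.16, adjusted p = 0.00961) and Gbp5 (0.57 ± 0.16, adjusted p = 0.00775). These started lower in MOPS and rose by a larger fold than in HEPES, yet stayed below it. In CPM the rise of each was the smaller in MOPS, for Gbp5 277 against 321. Oasl2 (0.53 ± 0.16, adjusted p = 0.00671) behaved in the same way. Samhd1 was higher (0.96 ± 0.064, adjusted p = 5.30e-13), its fall with LPS being the smaller in MOPS. The 2 other positive values, for Oasl1 (1.5 ± 0.50, adjusted p = 0.0364) and Ifit1 (1 ± 0.35, adjusted p = 0.0272), belong to genes with untreated levels of 0.326 to 1.22 CPM per library. Of the 30 calls 20 were kept in each of the 17 alternatives. The calls lost when single libraries were left out, named in brackets, were those of Ifit1 (1, 3, 5, 6 or 11), Isg20 (1, 2, 8 or 10), Oas2 (3 or 9), Oasl1 (1, 3, 4, 5, 7, 8 or 11), Phf11d (2, 3, 7 or 11), Slfn5 (2, 3, 4, 5 or 6), Slfn8 (2 or 6), Trim21 (2 or 3) and Zbp1 (3, 4, 6, 8, 9 or 11). With total counts alone the calls of Ifi204, Isg20, Phf11d, Slfn8, Trim21 and Zbp1 were lost.

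**Figure D4:**
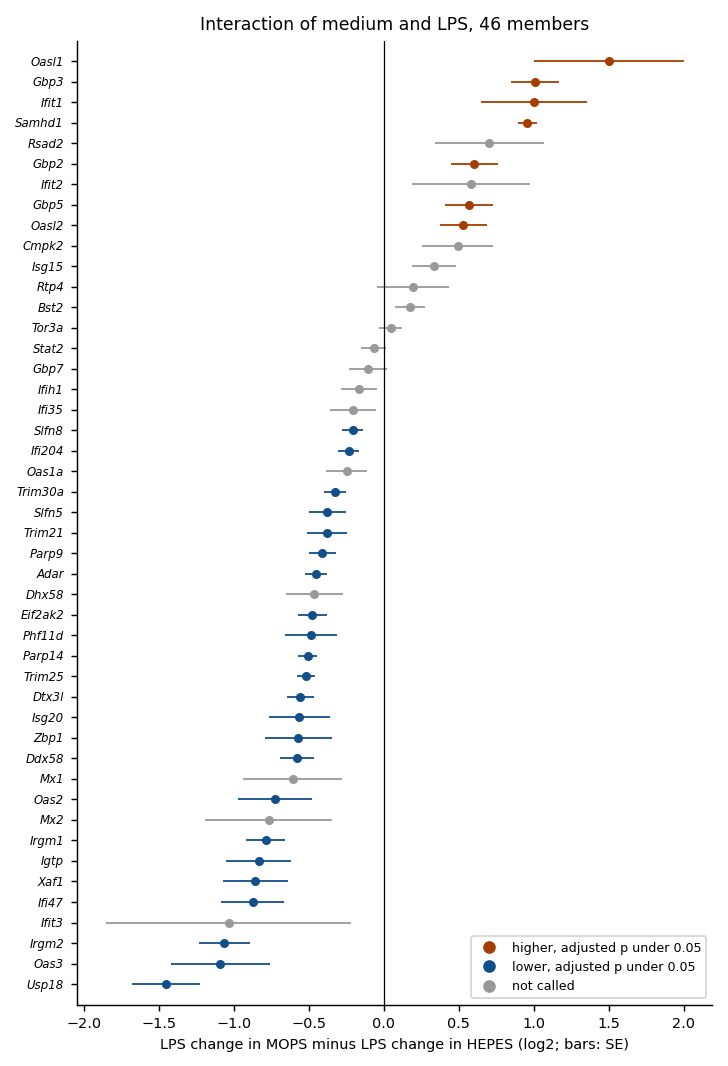
LPS change in MOPS minus LPS change in HEPES (log2, with standard errors) for the 46 tested members in order of size; colours mark calls at an adjusted p under 0.05. The 23 members called lower run from Usp18 to Slfn8, and the 7 called higher run from Oasl2 to Oasl1.

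The rest of the interferon pathway was read from a set of listed genes. None of 20 interferon genes had enough counts to be tested. Ifnb1, the gene of interferon-beta, had 0 counts in both untreated groups, which allows up to 0.0376 CPM in MOPS and 0.0351 in HEPES (3 counts over the group). With LPS it was at 0.103, 0.378 and 0.165 CPM in MOPS (13 counts in all) and 0.49, 0.426 and 0.612 in HEPES (28 counts). Each HEPES library with LPS was above each MOPS library with LPS, at a depth of a few counts per library, and no test was made.

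Of 5 tested receptor genes, 4 rose with LPS in each medium. Of the subunits of the type I receptor, Ifnar1 rose by 1.18 ± 0.036 in MOPS and 1.18 ± 0.035 in HEPES and Ifnar2 by 1.40 ± 0.043 and 1.49 ± 0.044. The interaction was not called for Ifnar1 (0.0042 ± 0.050, adjusted p = 0.959) or Ifnar2 (-0.084 ± 0.060, adjusted p = 0.287). Ifnar2 was higher in MOPS without LPS (0.39 ± 0.044) and with LPS (0.30 ± 0.042), and Ifnar1 was slightly lower (-0.16 ± 0.035 and -0.15 ± 0.035; the second not called with total counts alone). Of the other receptor genes, Ifngr1 was higher in MOPS with LPS (0.34 ± 0.041) and Il10rb was lower in MOPS in both states (-0.45 ± 0.038 and -0.34 ± 0.038).

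Among 5 transducers, Jak2, a kinase of several cytokine receptors, rose most, from 78.7, 78.9 and 76.8 CPM to 799, 724 and 736 in MOPS and from 72.8, 74.7 and 68.4 to 1522, 1424 and 1366 in HEPES (3.27 ± 0.048 and 4.32 ± 0.049). The smaller rise in MOPS gave an interaction of -1.05 ± 0.063 (adjusted p = 5.82e-14), and each MOPS library with LPS was below each HEPES one. Irf9, the DNA-binding subunit of ISGF3, was at 22.3, 22.7 and 21.7 CPM in MOPS, 26.3, 30.1 and 28.9 in HEPES, 21.5, 20.4 and 22.8 in MOPS with LPS and 42.6, 41.2 and 36.5 in HEPES with LPS. It was lower in MOPS without LPS (-0.36 ± 0.066, adjusted p = 4.36e-05) and with LPS (-0.90 ± 0.070, adjusted p = 1.96e-12), rose in HEPES (0.50 ± 0.065; -0.09 with total counts alone) and was not called for LPS in MOPS (-0.047 ± 0.071, adjusted p = 0.574). Jak1 rose by 0.39 ± 0.035 and 0.60 ± 0.035, and was at -0.12 in MOPS and not called in HEPES with total counts alone.

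**Figure D5:**
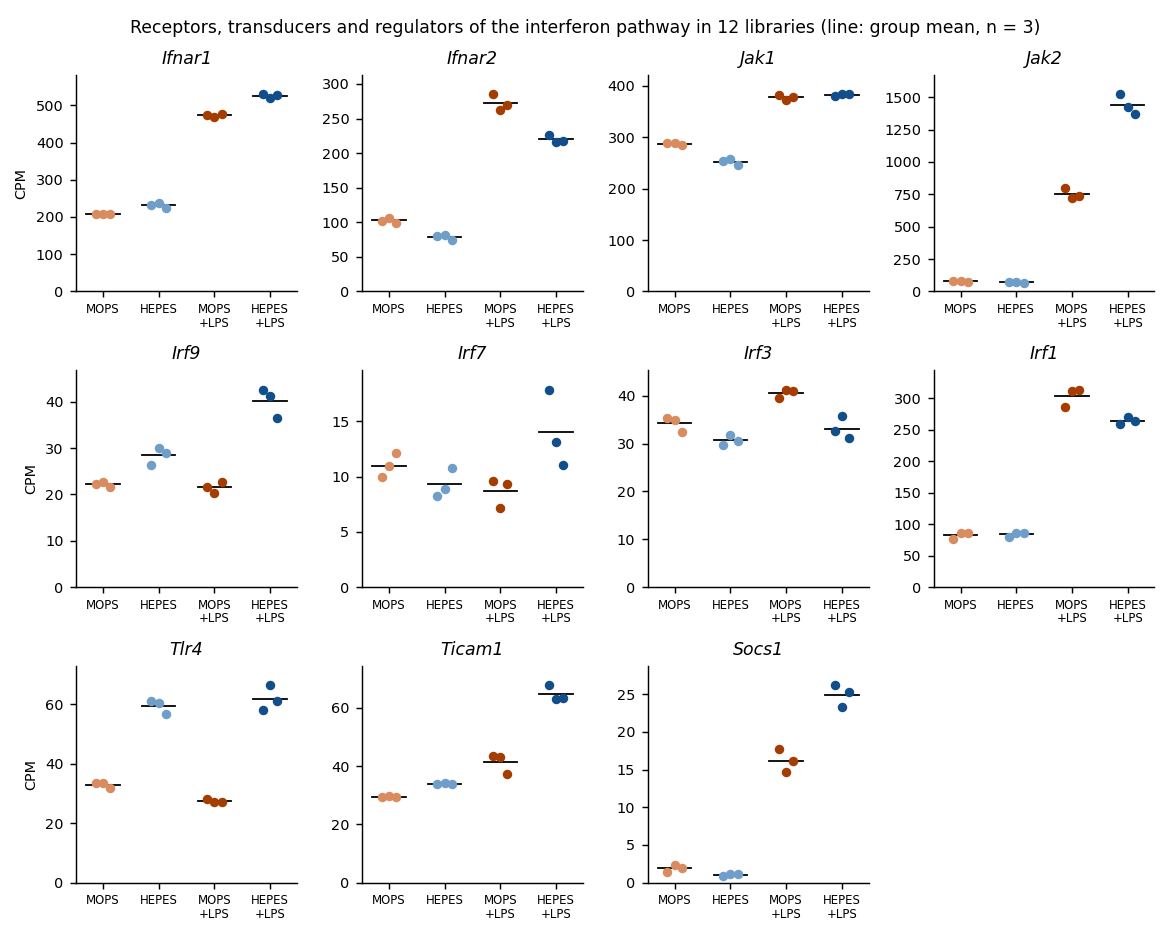
Level (CPM) of 11 receptors, transducers and regulators of the interferon pathway in the 12 libraries; each point is 1 library and the line is the mean of 3. Jak2, Socs1 and Ticam1 rise further with LPS in HEPES than in MOPS, Tlr4 is lower in MOPS in both states, and Irf9 is highest in HEPES with LPS.

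Of 16 genes that lead to interferon induction, MOPS had 7 higher and 4 lower in untreated cells and 7 of each with LPS. Tlr4, the LPS receptor, was lower in MOPS at 33.7, 33.5 and 31.7 CPM against 61.3, 60.5 and 56.7 in HEPES (-0.85 ± 0.053, adjusted p = 1.36e-14), and with LPS at 28.1, 27.1 and 27.3 against 58.2, 66.5 and 61.2 (-1.17 ± 0.058, adjusted p = 3.22e-17). Ticam1, the adaptor TRIF that links Toll-like receptor 4 to IRF3, was lower in MOPS without LPS (-0.20 ± 0.057) and with LPS (-0.65 ± 0.056, adjusted p = 1.94e-11). Irf3 was higher in MOPS with LPS (0.29 ± 0.060, adjusted p = 1.18e-04), and Irf7 lower (-0.69 ± 0.17, adjusted p = 0.00273). Irf1 rose in both media (1.88 ± 0.048 and 1.66 ± 0.048), Traf3 likewise (2.07 ± 0.046 and 1.97 ± 0.046), and Irf8 fell (-2.45 ± 0.048 and -2.90 ± 0.052). Irf2 fell by less in MOPS (-0.82 ± 0.048 against -1.44 ± 0.050, interaction 0.62 ± 0.069, adjusted p = 1.62e-08).

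Of 8 negative regulators and ISG15-conjugation genes, Socs1, which blocks the JAK kinases, rose from 1.46, 2.26 and 1.87 CPM to 17.7, 14.6 and 16.1 in MOPS and from 0.81, 1.15 and 1.07 to 26.2, 23.3 and 25.3 in HEPES (3.09 ± 0.13 and 4.62 ± 0.14, interaction -1.53 ± 0.22, adjusted p = 1.88e-06). It was higher in MOPS without LPS (0.90 ± 0.20) and lower with LPS (-0.63 ± 0.099). The phosphatase gene Ptpn6 fell in both media and less so in MOPS (-0.69 ± 0.041 against -1.88 ± 0.043), and Ptpn1 rose by 1.05 ± 0.044 and 0.55 ± 0.044 (-0.04 in HEPES with total counts alone). Ube2l6, the conjugating enzyme for ISG15, was lower in MOPS without LPS (-1.08 ± 0.088, adjusted p = 8.89e-12), beside Isg15 itself (-0.69 ± 0.14).

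A further 74 tested interferon-stimulated genes outside the 48 gave 45 lower and 7 higher in MOPS without LPS (median -0.430) and 44 lower and 8 higher with LPS (median -0.383). Those lower made up 60.8% and 59.5% of the 74, against 25.4% and 26.9% of all genes. With LPS 26 rose and 27 fell in MOPS (35.1% and 36.5%), and 30 rose and 29 fell in HEPES (40.5% and 39.2%), shares near those of all genes. The interaction was called higher for 12 (16.2%, against 21.9% of all genes) and lower for 17 (23.0%, against 17.6%). The DNA-sensing family gene Ifi203 was among those lower in MOPS (-1.41 ± 0.060 without LPS and -2.14 ± 0.048 with LPS), as were Ifi207 (-1.01 ± 0.044 and -1.39 ± 0.043) and Ifi211 (-1.21 ± 0.091 and -1.23 ± 0.051), near relatives of the member Ifi204. Ifi204 shares 14.8% of its 50-base words with Ifi211, so their counts may not be fully separate. Slfn2 rose in MOPS by 4.41 ± 0.055 and in HEPES by 4.24 ± 0.054. Zc3hav1, an RNA-binding antiviral gene, was lower in MOPS with LPS (-0.48 ± 0.041).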

How the data were processed

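RNA-seq libraries of 12 macrophage samples were compared. Per the submitters' processing notes, CASAVA 1.8, HISAT2 2.0.5, featureCounts 1.5.0-p3 and the build mm10 were used, in roles that are not stated. Whether strand was used in counting is not given in the sources used here. Per the file headers, the values analysed are raw read counts of each gene in each library, as deposited. The FPKM columns, made by the authors, equal the count per kilobase divided by a constant of each library and were not tested. Of the other columns of the deposited table, gene lengths were used for the levels per kilobase and gene positions are quoted as given. The authors' own test results, with log2 fold change and p-value columns, served only for a count of calls.

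Counts were analysed with edgeR 4.0.16 in R 4.3.3: filterByExpr left 14506 genes, libraries were scaled by TMM, and a model of the 4 group means with robust quasi-likelihood dispersion (common biological coefficient of variation 4.62%, 8 residual degrees of freedom) was fitted to 12 libraries. Adjustment was over all tested genes, with no fold minimum. SE is the size of the log2 fold change over the root of F. Library totals of 20114613 counts or more set the precision at low levels. Within groups, libraries differed by 2.66 to 6.54 times counting error (chi-square per degree of freedom), more than repeated counting of the same library would give. This does not show whether the libraries of a group came from separate animals or cultures. DESeq2 1.42.0 was an alternative.

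The members and lists were chosen with earlier results of these data known. Named genes were, per comparison, the 4 largest called changes and up to 4 called against the majority, plus the member of each role with the highest level per kilobase and members called nowhere; other members are given within their roles. In addition, 2 listed pathway genes enter the counts of their lists but are not reported here by name. All 48 members had the same coordinates in GENCODE vM21. The method was tested on simulated counts.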

Additional observations from a re-analysis of the deposited data

Results flagged for a closer look

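A differing LPS response between the media, tested as the interaction term of the model, was found for 30 members, and each value is the log2 change with LPS in MOPS minus that in HEPES. In the IFIT and Mx groups the value was 1 for Ifit1. In the OAS group the values were 1.5 for Oasl1 and 0.53 for Oasl2 on the positive side and -0.73 for Oas2 and -1.09 for Oas3 on the negative side. In the ISG15 system they were -1.45 for Usp18 and -0.52 for Trim25. Among effectors acting on RNA and nucleotides the value was 0.96 for Samhd1, and on the negative side -0.56 for Isg20, -0.45 for Adar, -0.48 for Eif2ak2, -0.38 for Slfn5 and -0.21 for Slfn8. Among sensors they were -0.58 for Ddx58, -0.57 for Zbp1 and -0.24 for Ifi204. Of the GTPases, 3 of the 4 GBP genes had 0.60 for Gbp2, 1.01 for Gbp3 and 0.57 for Gbp5, and the 4 IRG genes had -0.87 for Ifi47, -0.84 for Igtp, -0.79 for Irgm1 and -1.06 for Irgm2. Gbp7, the fourth GBP gene, had -0.11 and was not called. The PARP and TRIM genes had -0.41 for Parp9, -0.51 for Parp14, -0.56 for Dtx3l, -0.33 for Trim30a and -0.38 for Trim21. Of the remaining members, the values were -0.49 for Phf11d and -0.86 for Xaf1.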

How the results depend on the processing

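No paired analysis was possible because libraries are numbered 1 to 12 and no number is shared between groups. Leaving out each library in turn gave 2 members higher and 27 to 36 lower in MOPS without LPS, 3 and 40 to 42 with LPS, 24 to 27 higher and 12 to 15 lower with LPS in MOPS, 30 to 37 and 3 to 4 with LPS in HEPES, and 5 to 9 and 18 to 25 for the interaction. Scaling by total counts alone raised the members lower with LPS from 14 to 22 in MOPS and from 4 to 15 in HEPES. Over all genes the calls lower went from 5062 to 9506 in MOPS and from 5982 to 9666 in HEPES. The other counts of members moved by less than 1.5 times in each alternative run. The authors' deposited table gave 2 members higher and 27 lower without LPS, 3 and 40 with LPS, 26 and 12 for LPS in MOPS and 32 and 3 for LPS in HEPES. Scaling by total counts alone also turned the sign of log2 changes on the opposite side of 0: for LPS in MOPS the values were -0.22 for Oas1a, -0.20 for Isg20, -0.16 for Parp9, -0.23 for Dtx3l, -0.45 for Trim21, -0.23 for Bst2, -0.47 for Xaf1, -0.27 for Irf3, -0.024 for Ticam1, -0.46 for Ifngr1, -0.12 for Jak1, -0.50 for Zc3hav1. For LPS in HEPES they were -0.044 for Oas1a, -0.11 for Oas3, -0.18 for Adar, -0.46 for Eif2ak2, -0.16 for Ddx58, -0.19 for Zbp1, -0.54 for Ifi47, -0.48 for Irgm1, -0.51 for Trim30a, -0.14 for Trim21, -0.48 for Bst2, -0.41 for Phf11d, -0.089 for Irf9, -0.47 for Irf3, -0.53 for Tlr4, -0.035 for Ptpn1. For the medium without LPS they were 0.016 for Isg20, 0.00074 for Irf1, for the medium with LPS 0.070 for Ifit1, 0.076 for Jak1, and for the interaction 0.0041 for Stat2, 0.054 for Ifi211. With RLE size factors the sign turned for Isg20 (0.020, medium without LPS), Irf1 (0.0038, medium without LPS), Ifnar1 (-0.034, interaction). With DESeq2 the sign turned for Isg20 (0.019, medium without LPS), Irf1 (0.0038, medium without LPS), Ifnar1 (-0.034, interaction). With no filter on low counts the sign turned for Zc3hav1 (-0.023, LPS in MOPS), Ifi47 (-0.012, LPS in HEPES), Tlr4 (-0.0014, LPS in HEPES), Ifi211 (0.0057, interaction). With only the 2 groups compared the sign turned for Isg20 (0.0014, medium without LPS). Leaving out 1 library turned the sign for the following results, given with the range over the 12 libraries left out: Isg20 (-0.086 to 0.089, medium without LPS), Adar (-0.063 to 0.013, medium without LPS), Ifi35 (-0.038 to 0.17, medium without LPS), Irf1 (-0.056 to 0.039, medium without LPS), Ifit1 (-0.12 to 0.029, medium with LPS), Trim21 (-0.022 to 0.12, LPS in MOPS), Xaf1 (-0.093 to 0.17, LPS in MOPS), Zc3hav1 (-0.021 to 0.051, LPS in MOPS), Oas2 (-0.20 to 0.079, LPS in HEPES), Usp18 (-0.19 to 0.10, LPS in HEPES), Ifi47 (-0.029 to 0.24, LPS in HEPES), Igtp (-0.18 to 0.093, LPS in HEPES), Irgm2 (-0.22 to 0.041, LPS in HEPES), Ube2l6 (-0.10 to 0.040, LPS in HEPES), Tor3a (-0.036 to 0.078, interaction), Ifnar1 (-0.050 to 0.028, interaction), Ifi211 (-0.14 to 0.051, interaction). All of these sign changes apart from those with total counts alone concern values near 0 that were not called. Genes below about 1 CPM, such as Ifit1, Ifit3, Mx2 and Oasl1 without LPS, are limited by depth.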
